A study of Mus musculus with 7 samples.

Results

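The aminoacyl-tRNA synthetases were examined as a group in growing mouse oocytes. They were taken as the protein-coding rows of the deposited table whose gene name is a 1-letter amino acid code followed by "ars", with or without a final number, together with Eprs, Farsa and Farsb. This rule found 37 of 26019 gene rows. Names that end in 2 were counted as mitochondrial (17 genes) and the others as cytosolic (20 genes). The rule reads only name and gene type, and all 37 genes passed the filter on low values.

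Each library was made by Smart-Seq2 (reverse transcription of polyadenylated RNA and amplification of the cDNA) from 5 pooled oocytes of secondary follicles of C57BL/6J mice. The groups were KO (n = 3 libraries) and WT (n = 4 libraries). The series title names Mfn2 as the deleted gene of the KO oocytes, which encodes mitofusin 2, a GTPase that fuses mitochondria. Its paralog Mfn1 is named instead in the genotype label and in the treatment protocol. Age is 8 weeks in the treatment protocol and P1 in the age label. According to the design text each group had 3 mice, and no label ties a library to a mouse. The p-values thus cover the spread among libraries, which may be technical. The sources used here do not give the construct or Cre behind the deletion.

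An aminoacyl-tRNA synthetase joins an amino acid to its tRNA, the step that sets which amino acid a codon is read as. Mammalian cells carry one set of these enzymes for the cytosol and another, also encoded in the nucleus and imported, for the translation of the few proteins encoded in mitochondrial DNA. Lysine and glycine are exceptions, since 1 gene each (Kars and Gars) gives both the cytosolic and the mitochondrial enzyme. Mitochondria also have no glutaminyl-tRNA synthetase of their own: Ears2 loads glutamate on the tRNA for glutamine, and an amidotransferase made from Qrsl1, Gatb and Gatc converts it. In the cytosol several synthetases sit with 3 scaffold proteins (Aimp1, Aimp2 and Eef1e1) in the multisynthetase complex. Several cytosolic synthetase genes are known targets of ATF4, the transcription factor of the integrated stress response.

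Promoter sequences are shown first, for a motif that occurred in some cytosolic and in none of the mitochondrial genes with a promoter. This difference was not tested. RefSeq (GRCm38.p6) gave a promoter, from 250 bases before to 50 after the transcript start, for 27 of the 37 genes, 13 cytosolic and 14 mitochondrial. The letters TGATGNAA, the core of the element that ATF4 binds with a C/EBP partner, were searched on both strands. They occurred in 5 of the 13 cytosolic genes, in 0 of the 14 mitochondrial genes and in 3.97% of all 32851 promoters of this length. Matches within the last 100 bases before the start or after it are shown, from position -30 (Gars) to position 10 (Aars). The 5 sites are given with their flanks, 5′ to 3′ on the gene's strand, with the match in capitals (TGATGNAA, or its reverse complement where it lies on the other strand).
Aars (chr8:111033840-111033869, plus strand): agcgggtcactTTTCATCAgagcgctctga
Gars (chr6:55037960-55037989, plus strand): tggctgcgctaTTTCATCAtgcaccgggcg
Iars (chr13:49682126-49682155, plus strand): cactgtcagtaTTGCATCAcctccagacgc
Tars (chr15:11399655-11399684, minus strand): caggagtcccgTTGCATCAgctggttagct
Yars (chr4:129189895-129189924, plus strand): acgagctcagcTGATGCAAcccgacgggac

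For contrast, the 100 bases before the start are given for Tars2 and Nars2, the mitochondrial genes with the smallest p after Hars2, which hold no such match in the 300 bases. Starts are those of the RefSeq transcript, which can differ from the start of the gene row. For Tars2 the RefSeq start lies 5230 bases inside the gene, and the bases before the outer start were not searched. The difference was 22 bases for Nars2 and 698 for Aars.
Tars2 (chr3:95754978-95755077, minus strand): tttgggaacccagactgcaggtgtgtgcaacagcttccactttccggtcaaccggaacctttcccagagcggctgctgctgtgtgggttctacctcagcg
Nars2 (chr7:96951427-96951526, plus strand): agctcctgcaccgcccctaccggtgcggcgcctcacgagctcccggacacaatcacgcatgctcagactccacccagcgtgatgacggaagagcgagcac
The palindromic consensus of nuclear respiratory factor 1 was found in 0 of the 27 genes and in 0.971% of all promoters. The ETS-family motif CCGGAAGT was found in 3 of the 27 genes and in 3.89% of all promoters. A match is a description of the sequence and not of binding.

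KO libraries held 7516486, 8343915 and 6851042 reads in genes, and WT libraries 6676076 to 7741141. Mfn2 had 7.27, 4.55 and 7.66 normalised counts (reads divided by the library's size factor) in KO libraries and 35.3, 35.1, 15.0 and 29.2 in WT libraries (limma adjusted p = 0.00571), and all KO libraries lay below the WT libraries. Mfn1 had 335, 347 and 308 in KO libraries and 287, 271, 340 and 258 in WT libraries (log2 fold change 0.20, SE 0.16; adjusted p = 0.499), and the groups overlapped. The KO libraries were not alike. Along the leading principal component (34.0% of variance) KO 1 lay at -16.6 and KO 2 and KO 3 at -73.6 and -60.5, against 30.8 to 49.4 for WT libraries. Of 16 markers of granulosa cells, the somatic cells around the oocyte, all were detected in at least 1 library. Their mean log2(normalised count + 1) was 3.71 in KO 1, 4.70 in KO 2 and 4.57 in KO 3, against 2.92 to 3.80 in WT libraries. Their summed level was 1393 to 1786 in KO and 1491 to 1799 in WT libraries. In every library most of this sum came from Esr2, Cdh2, Nr5a2 and Cyp19a1. Cdh2 had a mean of 212 in KO and 213 in WT, and Nr5a2 194 in KO and 182 in WT. The sum thus says little about the markers of lower level. The marker Inha, an inhibin subunit gene, had 54.5, 395 and 338 in KO libraries and 66.7, 18.1, 23.4 and 11.9 in WT libraries. Amh, Fst and Krt18 did not pass the filter on low values and were not tested. Of the other markers, 0 passed as higher in KO and 2 as lower. Cyp19a1, the aromatase gene, had 78.2 ± 25.1 in KO and 179 ± 28.4 in WT (-1.23, SE 0.23; limma adjusted p = 0.00251), and Esr2, an estrogen receptor gene, 722 ± 129 in KO and 1013 ± 106 in WT (-0.50, SE 0.15; adjusted p = 0.0446). Amh had 0.908, 8.18 and 7.66 normalised counts in KO libraries and 0 to 0.953 in WT libraries. Krt18 had 0, 7.27 and 7.66 against 0 to 0.953. Foxl2 had 0.908, 3.64 and 3.28 against 0 to 1.08, and Fst 0, 2.73 and 1.09 against 0 to 0.953. In Amhr2, Hsd17b1, Gja1 and Wt1, none of them called, KO 2 and KO 3 also lay above every WT library. In Fshr, Inhba, Kitl, Nr5a2 and Cdh2 they did not both do so. The markers thus did not move in one direction. In such pools a change in the number of cells of a type and a change in RNA per cell cannot be told apart. Which cells the RNA of each marker came from, the oocyte included, was not tested. Of 16 oocyte markers 15 were in the table, with sums of 279959 to 444637 in KO and 253683 to 322413 in WT libraries. Of these, 1 passed as higher in KO and 0 as lower, where 6.71% of all tested genes passed. Ddx4 had 1904 ± 535 in KO and 785 ± 165 in WT (1.26, SE 0.20; limma adjusted p = 0.00287).

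Within the family, levels per length ran from 1.26 (Mars2) to 610 (Farsb) as a mean over the 7 libraries. They are given as normalised counts per kilobase of annotated exon. The exon length is that of all annotated transcripts joined, so a gene with long but unused exons is set too low. Farsb, the beta subunit of cytosolic phenylalanyl-tRNA synthetase, was the highest, at 643 ± 95.3 per kb in KO (SD, n = 3) and 586 ± 44.5 in WT (SD, n = 4). Rars (arginine), Iars (isoleucine) and Qars (glutamine) followed, at 574, 382 and 271 per kb in KO and 464, 326 and 267 in WT. Rars, Iars and Qars encode enzymes of the multisynthetase complex. The median over the 20 cytosolic genes was 74.5 per kb in KO and 75.4 in WT, and over the 17 mitochondrial genes 9.24 in KO and 7.43 in WT.

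Among mitochondrial genes Rars2 was the highest, at 240.2 ± 25.2 per kb in KO and 205 ± 31.0 in WT, and Fars2 came next, at 139 and 138 per kb. The lowest by the mean of all 7 libraries was Mars2, which charges the mitochondrial methionine tRNA, at 1.25 ± 0.201 per kb in KO and 1.26 ± 0.256 in WT. In WT libraries alone Hars2 was lower, at 0.408 per kb, against 2.44 in KO. Among cytosolic genes Vars (valine) and Yars (tyrosine) stood far below the rest. Yars had 1.95 ± 1.20 per kb in KO and 1.41 ± 0.700 in WT, and Vars 1.95 ± 0.00359 in KO and 2.15 ± 0.843 in WT. The next cytosolic gene upward, Aars (alanine), had 24.5 per kb in KO and 22.5 in WT. Vars rested on 12, 12 and 10 reads in KO libraries and 14, 10, 19 and 6 in WT libraries, so these reads were few in each of the 7 libraries.

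**Figure D1:**
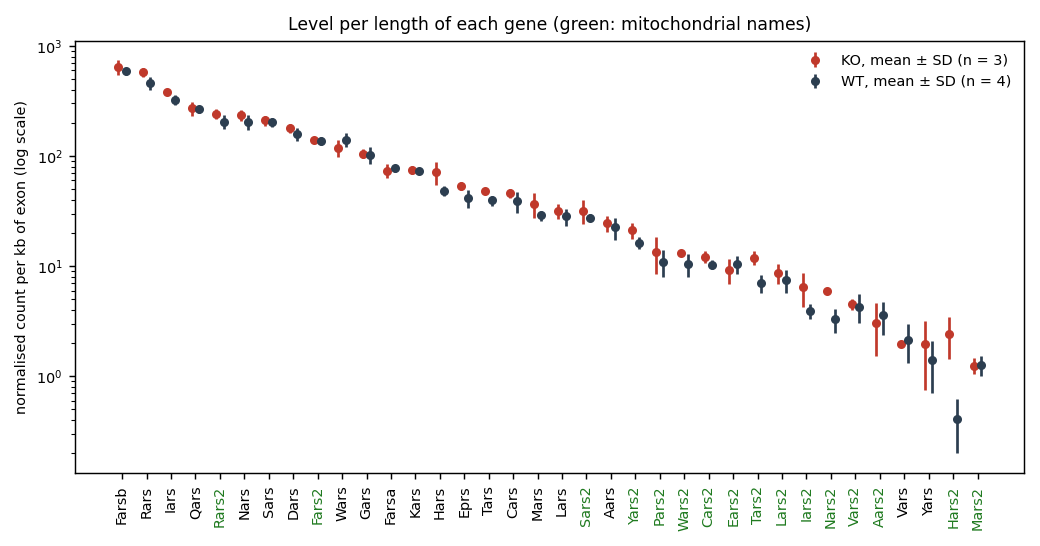
Mean normalised count per kilobase of annotated exon (log axis) of the genes reported by name, from the highest to the lowest, for KO (red, n = 3 libraries) and WT (dark, n = 4); bars are SD, and mitochondrial names are green. Farsb is the highest at 643 per kb in KO and 586 in WT, and Vars and Yars are the only black names at the low end, near 2 per kb.

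The levels of the 2 compartments were also set side by side for each amino acid, per length and within each library. Phenylalanine gives 2 pairs, with Farsa and with Farsb, and Eprs stands in 2 pairs. In 15 of the 18 pairs the cytosolic gene was higher in all 7 libraries. In the other 3 the mitochondrial gene was higher in all 7. The mitochondrial gene exceeded its cytosolic partner 1.69 to 2.57-fold for valine (Vars2 over Vars) and 6.02 to 40.6-fold for tyrosine (Yars2 over Yars). Yars rested on 4, 15 and 16 reads in KO libraries and 3, 7, 12 and 11 in WT libraries. The size of its ratios is thus uncertain. Fars2 exceeded Farsa, the alpha subunit gene, 1.47 to 2.26-fold but stood at 0.195 to 0.259 of Farsb, the beta subunit gene. At the other end, Hars2 stood at 0.00461 to 0.0451 of Hars.

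Between KO and WT, 1 of the 37 genes passed the test, the mitochondrial histidyl-tRNA synthetase gene Hars2, which was higher in KO. The test was limma on log2(normalised count + 1) over 19227 genes, with Benjamini-Hochberg adjusted p under 0.05, and it called 6.71% of all genes tested, 3.09% higher and 3.63% lower. Of the 20 cytosolic genes 0 were called, with 3 at an unadjusted p under 0.05. edgeR on the recovered reads also called 0 cytosolic genes, and it called 6.94% of all genes. Of the 17 mitochondrial genes 1 was called higher and 0 lower. Over all members 8 of 37 (21.6%) had an unadjusted p under 0.05, close to the share among all genes tested (21.8%). All 8 of these were higher in KO, where 10.6% of all tested genes were higher at that threshold.

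The direction of the small differences was mostly one way. The log2 fold change (KO over WT) was above 0 in 31 of the 37 genes (83.8%), against 49.2% of all tested genes. Its median was 0.18 over the cytosolic genes and 0.24 over the mitochondrial genes, against -0.01 over all tested genes. The mitochondrial median was 0.13 without KO 2 and 0.37 without KO 3, and the cytosolic median was 0.12 without KO 2. With CPM scaling, Qars and Fars2 moved to -0.01 each. Several genes lay close to 0. Without KO 2, Fars2 (-0.01), Kars (-0.03), Qars (-0.10) and Sars (-0.03) fell below 0, and Mars2 (0.11) rose above it. Members share their libraries, so these counts carry no test. Every KO library lay above every WT library in 6 of the 37 genes (16.2%), against 9.37% of all tested genes. Every KO library lay below every WT library in 0 of the 37, against 9.83%.

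**Figure D2:**
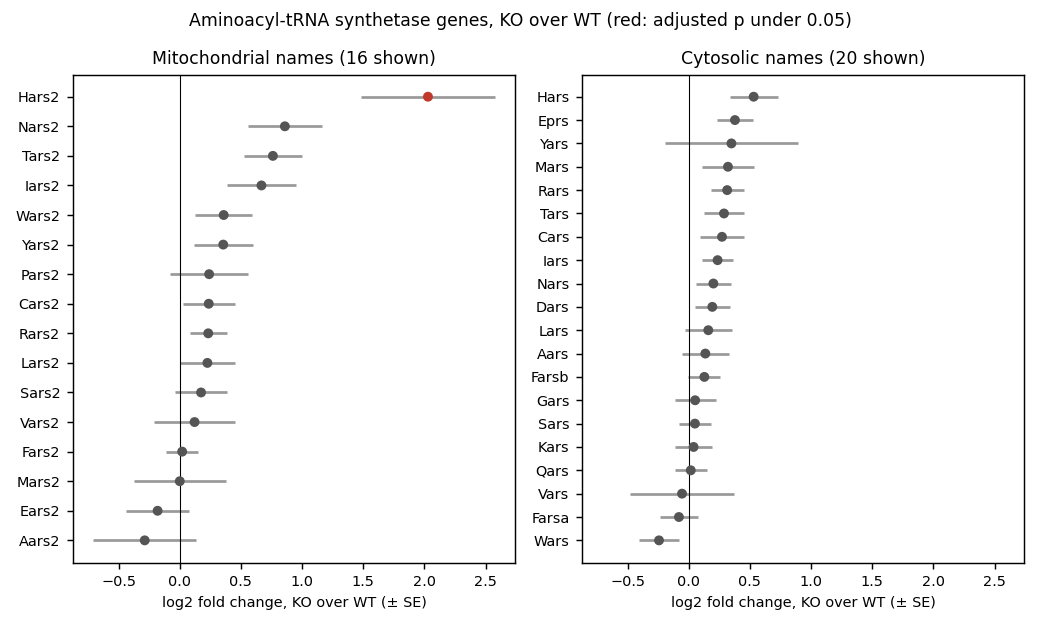
Log2 fold change (KO over WT) with its standard error for the mitochondrial and the cytosolic genes reported by name, each panel ordered by fold change. Hars2 (red, 2.03) is the only gene past the adjusted threshold, and most points lie right of 0.

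Hars2 (ENSMUSG00000019143.15; GRCm38 chromosome 18, 36783008 to 36792562, plus strand) had 5.45, 12.7 and 13.1 normalised counts in KO libraries, against 0.953, 1.07, 2.80 and 2.17 in WT libraries. The groups did not overlap, and KO 1 lay nearer to WT than KO 2 and KO 3 did. The log2 fold change was 2.03 (SE 0.55; limma adjusted p = 0.0307), and the ratio of the means was 5.97. Behind these values were 6, 14 and 12 reads in KO and 1, 1, 3 and 2 in WT libraries. The call was lost without KO 2 (adjusted p = 0.124), KO 3 (0.112), WT 1 (0.0715) or WT 2 (0.0708). Without both KO 2 and KO 3, which leaves KO 1 as the 1 KO library, the log2 fold change was 1.29. That fit assumes KO 1 varies like the WT libraries, so its p-values say little about any single gene. A fit that held the mean of the granulosa markers as a covariate gave 1.39 (limma adjusted p = 0.789). That covariate was higher in KO 2 and KO 3 than in every WT library. The fit called 0 of 19227 genes higher and 3 lower, so its p-values also say little about any single gene.

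Hars2 and Hars, the cytosolic histidyl gene, start head to head on opposite strands and overlap by 199 bases. The libraries carry no strand, so reads in the overlap cannot be told apart. Hars (ENSMUSG00000001380.7; chromosome 18, 36766528 to 36783205, minus strand) had 137, 217 and 166 normalised counts in KO libraries and 117, 132, 121 and 103 in WT libraries. The groups did not overlap, with KO 2 the highest. Its log2 fold change was 0.53 (SE 0.20; limma adjusted p = 0.111), and it passed without KO 1 (0.69, adjusted p = 0.0474). It had the smallest p of the cytosolic genes.

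Tars2 and Nars2 did not pass, and in both every KO library lay above every WT library. Tars2, for the threonine tRNA (ENSMUSG00000028107.14; chromosome 3, 95739976 to 95760206, minus strand), had 84.5, 93.6 and 70.0 normalised counts in KO libraries and 41.0, 60.7, 42.1 and 50.9 in WT libraries. All 3 KO libraries, KO 1 included, were above the highest WT library. Its log2 fold change was 0.76 (SE 0.24; limma adjusted p = 0.0610). It passed with DESeq2 (adjusted p = 0.0473), which called 9.18% of its genes, and when only genes with a mean of at least 10 were tested (0.0492). Leaving out 1 library at a time gave adjusted p of 0.0630 to 0.193.

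Nars2, for asparagine (chromosome 7, 96951505 to 97064758, plus strand), had 38.2, 42.7 and 43.8 normalised counts in KO libraries and 25.7, 17.0, 19.6 and 29.2 in WT libraries. Its KO libraries lay close together, and its log2 fold change was 0.86 (SE 0.30; limma adjusted p = 0.0907). Of its 75-base stretches 2.9% also occur in other genes, and it overlaps an antisense row by 383 bases.

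**Figure D3:**
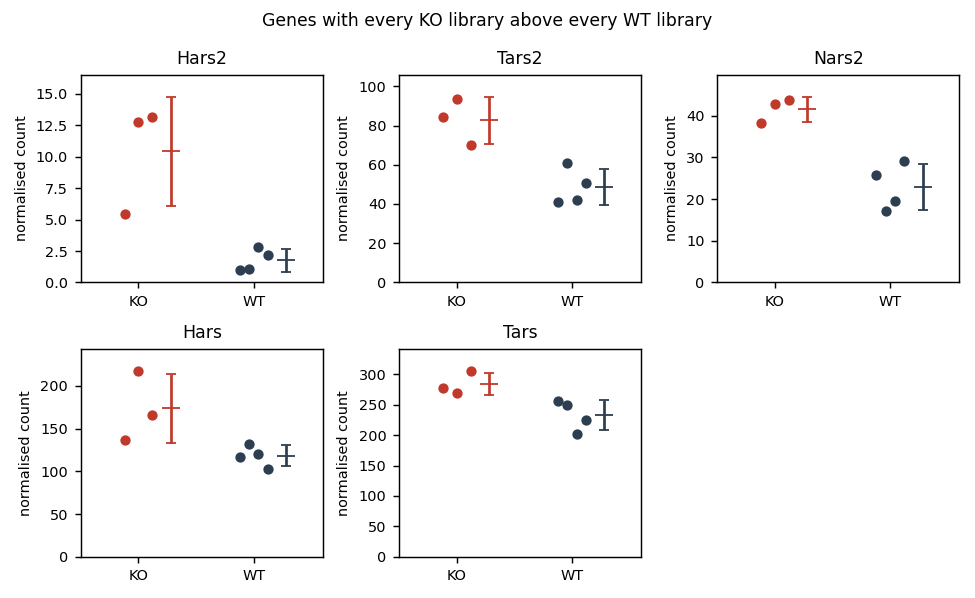
Normalised counts in each library of 5 genes in which every KO library (red, left) lay above every WT library (dark, right); the dashes with bars are means ± SD. Of these, Hars2 passed the adjusted threshold; its KO libraries lie between 5.45 and 13.1 and its WT libraries between 0.953 and 2.80.

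Iars2, Rars2 and Wars2 overlapped between the groups. Iars2 (isoleucine) had 39.1, 54.5 and 78.8 normalised counts in KO libraries and 36.2, 27.7, 40.2 and 34.7 in WT libraries (log2 fold change 0.67, SE 0.28; limma adjusted p = 0.168). KO 3 was the highest and KO 1 lay within the WT range. Of its 75-base stretches 22.1% also occur in other genes and the gene overlaps Rab3gap2, so its count is less certain. Rars2 (arginine) had 602, 654 and 741 in KO libraries and 626, 485, 508 and 659 in WT libraries (0.23, SE 0.15; adjusted p = 0.393). Wars2 (tryptophan) had 82.7, 75.5 and 77.7 in KO libraries, and in WT libraries 46.7, 82.0, 60.8 and 59.6, with WT 2 inside the KO range (0.36, SE 0.24; adjusted p = 0.403).

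For 10 further mitochondrial genes the log2 fold change lay between -0.29 (Aars2, alanine) and 0.35 (Yars2, tyrosine). Fars2, with 800 ± 46.2 normalised counts in KO and 790 ± 66.1 in WT, differed by 0.02 on the log2 scale (SE 0.13; limma adjusted p = 0.956). Mars2 had 16.4, 11.8 and 14.2 in KO libraries and 12.4, 15.98, 11.2 and 17.3 in WT libraries, and its groups overlapped throughout. Ears2, which serves both the glutamate and the glutamine tRNA of mitochondria, had 47.6 ± 11.8 in KO and 53.8 ± 9.84 in WT (-0.18, SE 0.26; adjusted p = 0.742).

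Of the 8 cytosolic enzymes of the multisynthetase complex 0 passed. All 8 had a log2 fold change above 0, from 0.02 (Qars, -0.01 with CPM scaling) to 0.38 (Eprs), with a median of 0.21. Without KO 2, Kars (-0.03) and Qars (-0.10) lay below 0 and the others stayed above it. Every KO library lay above every WT library in 0 of the 8, against 9.37% of all tested genes. Eprs, which holds the glutamyl and prolyl enzymes in 1 chain, had 888, 964 and 1041 normalised counts in KO libraries and 834, 897, 659 and 610 in WT libraries. KO 1 lay below WT 2 and the other KO libraries above all WT libraries (SE 0.15; limma adjusted p = 0.137). Rars had 1667, 1887 and 2003 in KO libraries and 1487, 1681, 1217 and 1602 in WT libraries (0.31, SE 0.14; adjusted p = 0.174). Iars had 1979.5, 2137 and 1926 in KO libraries and 1972, 1719, 1642 and 1533 in WT libraries (0.24, SE 0.13; adjusted p = 0.286). In both genes the KO range reached into the WT range.

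Of the 12 other cytosolic genes 0 passed, 9 had a log2 fold change above 0 and 3 below it, with a median of 0.13. Tars had 278, 269 and 305 normalised counts in KO libraries and 256, 249, 202 and 225 in WT libraries (0.29, SE 0.16; limma adjusted p = 0.312). Its groups did not overlap but stood close. Cars (cysteine) had 331, 303 and 276 in KO libraries and 247, 325, 250.5 and 195 in WT libraries (0.27, SE 0.18; adjusted p = 0.399), with WT 2 inside the KO range. Wars (tryptophan) had the lowest fold change of the cytosolic genes, with 411 ± 73.4 in KO and 485 ± 70.5 in WT (-0.24, SE 0.16; adjusted p = 0.415).

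Both genes that serve the cytosol and the mitochondrion had nearly equal means in the groups. Kars had 323, 367 and 318 normalised counts in KO libraries and 333, 348, 331 and 296 in WT libraries (log2 fold change 0.04, SE 0.15; limma adjusted p = 0.915). Gars had 348, 342 and 294 in KO libraries and 318, 375, 342 and 243 in WT libraries (0.05, SE 0.17; adjusted p = 0.896). All KO libraries of Gars lay within the WT range, and for Kars KO 2 alone lay above it. Farsb had 1665, 1945 and 1446 in KO libraries and 1683, 1528, 1397 and 1532 in WT libraries, and its partner Farsa 335 ± 50.5 in KO and 352 ± 26.7 in WT. The log2 fold change was 0.13 (SE 0.13; limma adjusted p = 0.627) for Farsb and -0.08 (SE 0.16; adjusted p = 0.815) for Farsa. Yars had 3.63, 13.6 and 17.5 in KO libraries and 2.86, 7.46, 11.2 and 11.9 in WT libraries (0.35, SE 0.55; adjusted p = 0.768), and Vars had 10.9 ± 0.0201 in KO and 12.1 ± 4.73 in WT (-0.06, SE 0.42; adjusted p = 0.959).

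The 5 cytosolic genes with TGATGNAA in the promoter had log2 fold changes of 0.14 (Aars), 0.05 (Gars), 0.24 (Iars), 0.29 (Tars) and 0.35 (Yars), and 0 of the 5 passed. Their median was 0.24, against 0.18 over all 20 cytosolic genes. The 20 include these 5 and the cytosolic genes without a promoter to search. This is thus no contrast with genes that lack the motif. Aars had 235, 185 and 260.4 normalised counts in KO libraries and 184, 274, 211 and 165 in WT libraries, with a limma adjusted p of 0.739.

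Summed over the genes, cytosolic synthetases made up 1939, 1989.9 and 1781 CPM (their reads scaled to an equal total per library) in KO libraries and 1784, 1854, 1701 and 1598 in WT libraries. KO 3 fell within the WT range. Mitochondrial synthetases made up 315, 316 and 305 CPM in KO libraries and 274, 263, 283 and 293 in WT libraries, so the groups did not overlap on this scale. With the deposited size factors they did overlap, at 2151, 2397 and 2286 normalised counts in KO libraries and 2022, 1867, 1913 and 2183 in WT libraries. The mitochondrial share of all synthetase reads was 14.1% ± 0.472 in KO and 13.9% ± 1.32 in WT.

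By library, the median over cytosolic genes of the log2 difference from the WT mean was 0.09 in KO 1, 0.27 in KO 2 and 0.16 in KO 3. Over mitochondrial genes it was 0.21 in KO 1, 0.45 in KO 2 and 0.15 in KO 3. Of the 17 mitochondrial genes 13 lay above their WT mean in KO 1, 16 in KO 2 and 13 in KO 3. Of the 20 cytosolic genes 12 did so in KO 1, 17 in KO 2 and 11 in KO 3. The share of all tested genes above their WT mean was not computed for single libraries. The part of granulosa cell RNA in the fold changes of single genes was not tested beyond the covariate fit. That fit can hardly part it from group, since the covariate was highest in KO 2 and KO 3.

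**Figure D4:**
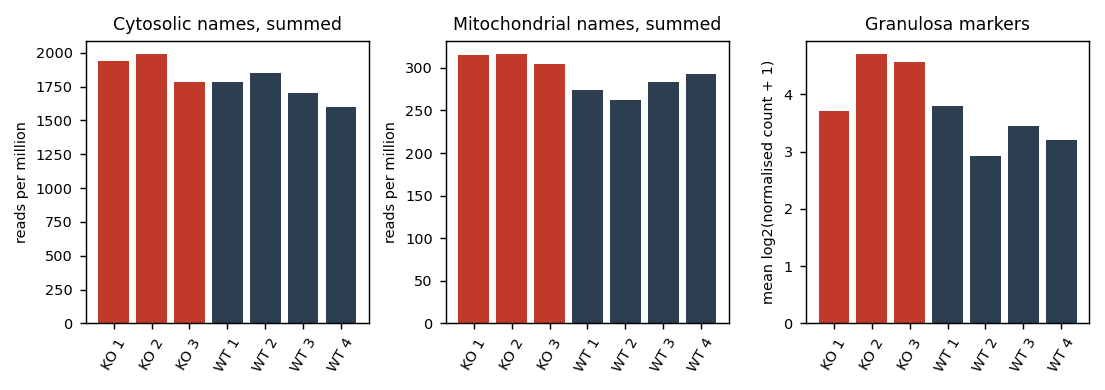
CPM of the 20 cytosolic and of the 17 mitochondrial genes, and the mean log2(normalised count + 1) of 16 granulosa markers, in each KO (red) and WT (dark) library. Mitochondrial sums are 305 to 316 in KO and 263 to 293 in WT libraries, and the granulosa mean is highest in KO 2 (4.70) and KO 3 (4.57).

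Genes that work with the synthetases were described from 4 lists, with 6.71% of all tested genes as the background of calls. Of 11 scaffold proteins and partners 1 fell and 0 rose. The one was Sepsecs, which makes selenocysteine on its tRNA, with 233, 97.3 and 177 normalised counts in KO libraries and 255, 257, 331 and 349 in WT libraries (log2 fold change -0.88, SE 0.24; limma adjusted p = 0.0409). Its KO libraries all lay below the WT libraries. Of the 7 single-library omissions only that of KO 1 kept the call. It was lost with edgeR and TMM (adjusted p = 0.0521) and CPM scaling (0.0721). With the granulosa covariate, under which 3 of all tested genes passed as lower, the log2 fold change was -0.30 (limma adjusted p = 0.889). The scaffold genes Aimp1 (375 ± 31.3 in KO and 422 ± 45.0 in WT), Aimp2 (1155 ± 82.6 in KO and 1182 ± 166 in WT) and Eef1e1 (1273 ± 185 in KO and 1133 ± 162 in WT) did not pass.

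Of 10 elongation factor and related genes tested 1 rose and 0 fell. Eef1a1, the factor that carries charged tRNA to the ribosome, had 4122, 6243 and 5534 normalised counts in KO libraries and 3827, 3293, 2941 and 3123 in WT libraries (log2 fold change 0.67, SE 0.14; limma adjusted p = 0.00628). All KO libraries lay above the WT libraries, and KO 1 was nearest to WT. Of its 75-base stretches 26.6% also occur elsewhere. It passed whichever single library was left out (adjusted p of 0.000573 to 0.0485). With the granulosa covariate, under which 0 of all tested genes passed as higher, its log2 fold change was 0.255 (limma adjusted p = 0.832). With KO 1 as the 1 KO library the log2 fold change was 0.33.

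Of 25 genes of mitochondrial tRNA maturation and translation 1 rose and 0 fell. Hsd17b10, a dehydrogenase that is also a subunit of mitochondrial RNase P, which cuts the 5′ ends of tRNAs, had 619, 1195 and 886 normalised counts in KO libraries and 446, 476, 349.6 and 416 in WT libraries (log2 fold change 1.05, SE 0.19; limma adjusted p = 0.00266). All KO libraries lay above the WT libraries. It passed whichever single library was left out (adjusted p of 0.000111 to 0.0243). With the granulosa covariate, under which 0 of all tested genes passed as higher, its log2 fold change was 0.635 (limma adjusted p = 0.657). With KO 1 as the 1 KO library the log2 fold change was 0.56. Trnt1, which adds the CCA end to tRNAs and was chosen after its values were seen, had 1930.5, 1892 and 2422 in KO libraries and 1609, 1529, 1411 and 1657 in WT libraries (0.42, SE 0.13; adjusted p = 0.0551). Trnt1 did pass with edgeR, DESeq2, CPM scaling, no filter or a mean of at least 10, and without KO 1. The amidotransferase genes Qrsl1, Gatb and Gatc did not pass.

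Of 21 tested genes of the GCN2 and ATF4 arm, which senses uncharged tRNA, 1 rose and 0 fell. Slc38a2, an amino acid transporter gene, had 1.82, 3.64 and 9.85 normalised counts in KO libraries and 0, 1.07, 0 and 0 in WT libraries (log2 fold change 2.12, SE 0.64; limma adjusted p = 0.0496). These are a few reads per library, and of the 7 single-library omissions only that of KO 1 kept the call. Of the WT libraries only WT 2 reached a value of 1, so Slc38a2 passed the filter through the KO libraries. Its call therefore depends on the group in which it was high. With the granulosa covariate, under which 0 of all tested genes passed as higher, its log2 fold change was 1.83 (limma adjusted p = 0.750). The median log2 fold change of the list was -0.15. Atf4 itself had 928 ± 90.1 in KO and 1030.0 ± 77.5 in WT (-0.15, SE 0.13; adjusted p = 0.545).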

How the data were processed

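RNA was measured in 3 KO and 4 WT libraries. The deposited signal values are counts of reads in genes over a size factor of the library. The submitters' processing notes name STAR, cutadapt, FastQC, DESeq2 and DESeq, with build GRCm38 (mm10). The sources used here do not name the counter. Whole reads were recovered from each library's step: 100% of values up to 1000 reads came within 0.05 of a whole number. Size factors ranged from 0.914 to 1.10. Replicate libraries differed by more than counting noise (chi-square per degree of freedom of at least 5.44).

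The main test was limma (3.58.1, R 4.3.3) with trend and robust estimation on log2(value + 1), over genes that reached a value of 1 in 3 or more libraries. A fold change on this scale understates that of low genes. edgeR (4.0.16) on recovered reads called 1334 genes, and DESeq2 (1.42.0) was an alternative. The fit was tested on simulated data, with changes placed only in genes of a higher mean than Hars2. That test does not show how often a change at so low a level is found. Coordinates and exon lengths come from GENCODE M21 (GRCm38) and promoters from RefSeq. Of the 37 genes, 15 overlap another row, and 22 share no 75-base stretch with another gene.

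All 37 genes enter the counts, medians and sums; values of 1 gene and of 1 promoter site are not reported here. Full values were given for called genes, the 6 cytosolic and 6 mitochondrial genes of smallest p beyond those, the extremes of level, and Kars and Gars. Of the related lists, called genes were named. The rule for members reads no levels, but the family and the lists were chosen with earlier results of these data known.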

Additional observations from a re-analysis of the deposited data

How the results depend on the processing

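Over 19 alternatives, 647 values of the 37 genes kept their direction and their side of the threshold, 3 gained a call, 6 lost one and 45 changed sign, in 12 genes, 0 of them with an adjusted p under 0.05. All 6 losses were of Hars2. DESeq2 called 2 mitochondrial genes higher, Hars2 and Tars2. With only genes of mean 10 or more tested, Tars2 was called and Hars2, too low, was not tested. Without both KO 2 and KO 3, 0 mitochondrial genes and 0 genes of the related lists were higher, 1 gene of the lists was lower (Lrpprc), and among all genes tested 1 was higher and 97 lower. With the granulosa covariate 0 mitochondrial genes were higher, 0 genes of the related lists were higher and 0 lower, all genes tested gave 0 higher and 3 lower, and the cytosolic median was 0.07. The cause was not tested. Among the related lists, edgeR with TMM and CPM scaling called 0 lower, and no filter gave 5 higher and 2 lower. Leaving out 1 library at a time gave 0 to 1 cytosolic and 0 to 1 mitochondrial genes higher, 228 to 815 higher and 319 to 952 lower over the whole table, and 0 to 2 lower in the related lists. The whole-table count of higher genes was lowest without KO 2 (228). With the replicate block, 1 mitochondrial gene was higher (Hars2, adjusted p = 0.0404). Libraries with the same number did not deviate together (r = -0.12, 0.026 and 0.022), and those of different numbers gave r of -0.116 to 0.093. These values show no pairing but cannot exclude a shared animal or day, and no label says whether the numbers pair samples. Depth limits genes of few reads, such as Hars2, Slc38a2, Vars and Yars. The sign changes are given as log2 fold changes. CPM scaling gave -0.01 for Fars2 and for Qars, and edgeR with TMM 0.00 for Mars2. With KO 1 as the 1 KO library, values were -0.08 for Fars2, -0.02 for Kars, -0.11 for Lars, 0.21 for Mars2, -0.06 for Qars, -0.02 for Sars, -0.05 for Vars2 and -0.87 for Yars. The granulosa covariate gave -0.14 for Fars2, -0.02 for Kars, 0.43 for Mars2, -0.15 for Qars, -0.03 for Sars, -0.10 for Vars2 and -0.20 for Yars. The replicate block gave -0.07 for Gars, -0.01 for Kars, 0.10 for Mars2, -0.01 for Qars, -0.00 for Sars and -0.06 for Vars2. Over the single-library omissions the values ran from -0.60 to 0.17 for Aars2, -0.03 to 0.07 for Fars2, -0.19 to 0.03 for Farsa, -0.07 to 0.13 for Gars, -0.03 to 0.08 for Kars and -0.10 to 0.11 for Mars2. They ran from -0.10 to 0.10 for Qars, -0.03 to 0.10 for Sars, -0.30 to 0.14 for Vars, -0.06 to 0.28 for Vars2 and -0.04 to 0.96 for Yars.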
